A study of Mus musculus and Rattus norvegicus with 28 samples.

Results

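Accessible chromatin of cardiomyocytes from mice at postnatal day 7 (P7) was compared with that at postnatal day 1 (P1), using the ATAC-seq peak lists of 2 libraries per time point. Overlapping peaks of the 4 lists were merged into 69513 regions. A region was called gained where both P7 libraries and neither P1 library had a peak, and lost where both P1 libraries and neither P7 library had a peak. Of the 69513 regions, 10823 (15.6%) were gained and 2153 (3.10%) were lost, and 7921 held a peak in all 4 lists. The cells came from left ventricles of wild-type C57BL/6 mice of both sexes. They were isolated with trypsin and collagenase II and pre-plated to remove other cells, and no group carried an allele or a treatment. The whole series holds 28 libraries, among them 2 ATAC-seq and 2 RNA-seq libraries each of embryonic day 18.5 (E18.5), P1, P3 and P7. The E18.5 and P3 libraries played no part in the choice of regions.

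ATAC-seq uses the Tn5 transposase, which cuts and tags DNA that is not wrapped in nucleosomes, so that promoters and enhancers in use appear as peaks of reads. Promoters of widely used genes tend to be open in most cell types, whereas distal elements differ more between cell types and states. Distal elements are opened by transcription factors that bind short motifs. AP1 factors, dimers of the Jun and Fos families, bind TGANTCA, MEF2 factors bind an A- and T-rich motif in muscle genes, and GATA and TEAD factors bind AGATAA and GGAATG. In the first week after birth mouse cardiomyocytes leave the cell cycle, switch from fetal to adult contractile isoforms and turn from glycolysis to fatty acid oxidation.

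The peak lists differed in size before any comparison of regions. P1 replicate 1 held 29281 peaks and P1 replicate 2 held 19753, against 49113 in P7 replicate 1 and 35898 in P7 replicate 2. The P1 peaks had mean widths of 214 and 230 bp, and the P7 peaks 430 and 361 bp. Both P7 lists were thus longer and wider than both P1 lists. A missing peak means only that no peak passed the caller's threshold in that library. Read depth is unknown, since only peaks were available, so a shallower library cannot be told apart from less open chromatin.

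P1 replicate 2 stood apart from the other libraries. Its peaks shared 0.279 of the covered bases with P1 replicate 1 (bases covered by both lists over bases covered by either), while P1 replicate 1 shared 0.298 with P7 replicate 2 and the P7 pair shared 0.445. Of its peaks, 41.4% lay in sequence of low complexity, against 16.9% in P1 replicate 1, 3.04% and 4.31% in the P7 lists, 2.46% and 11.6% at E18.5, and 2.21% and 1.38% at P3. Low complexity here means that under 70% of the 6-base words in the 401 bases around the midpoint were distinct. Away from promoters the share reached 58.8% in P1 replicate 2 and 27.5% in P1 replicate 1. Peak names in the 2 P1 lists carried another prefix than those in the P7 lists, so the prefix and the time point cannot be told apart.

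Sequences around the summits are given as examples of gained and lost regions. They were picked for the motif or repeat they hold, so they do not measure how common it is. The first 4 are 121 bases around the P7 replicate 1 summit of the highest ranked gained distal regions with AP1 motifs near the summit, with each AP1 motif in capitals. All coordinates are on GRCm38 (mm10) and all sequences are the plus strand of the RefSeq assembly. The region nearest to Gm13498 (chr2:50793705-50793825) holds 2 AP1 motifs, that nearest to Gm36940 (chr9:56370841-56370961) holds 1, and those nearest to Gm29101 (chr1:91816784-91816904) and C530008M17Rik (chr5:76642246-76642366) hold 2 each.
Gm13498: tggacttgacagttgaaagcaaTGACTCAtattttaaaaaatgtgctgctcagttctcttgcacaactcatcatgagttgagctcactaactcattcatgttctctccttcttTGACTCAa
Gm36940: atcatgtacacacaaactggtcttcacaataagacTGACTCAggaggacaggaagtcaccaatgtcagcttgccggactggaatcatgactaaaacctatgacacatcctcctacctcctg
Gm29101: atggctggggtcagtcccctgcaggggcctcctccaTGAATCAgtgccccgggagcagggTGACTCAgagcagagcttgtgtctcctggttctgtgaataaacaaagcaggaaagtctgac
C530008M17Rik: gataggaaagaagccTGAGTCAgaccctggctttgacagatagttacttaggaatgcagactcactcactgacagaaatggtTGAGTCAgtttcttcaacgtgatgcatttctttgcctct

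The next 3 are the highest ranked lost distal regions with runs of CA or TG dinucleotides around the P1 replicate 1 summit, and runs of at least 6 units are in capitals. They lie nearest to Nwd2 (chr5:63412954-63413074), Abhd6 (chr14:8006980-8007100) and Bach2 (chr4:32356795-32356915).
Nwd2: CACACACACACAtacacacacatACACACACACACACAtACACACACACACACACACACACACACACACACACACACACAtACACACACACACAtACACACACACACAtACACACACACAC
Abhd6: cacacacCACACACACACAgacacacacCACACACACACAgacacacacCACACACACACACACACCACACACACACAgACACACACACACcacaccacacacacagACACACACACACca
Bach2: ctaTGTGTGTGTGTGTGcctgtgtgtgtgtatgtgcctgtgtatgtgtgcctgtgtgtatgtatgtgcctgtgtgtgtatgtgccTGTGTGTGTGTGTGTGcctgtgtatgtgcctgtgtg

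The last 2 are the highest ranked lost distal regions that hold a MEF2 motif and are not of low complexity, with the motif in capitals. They lie nearest to Gm7128 (chr8:15921306-15921426) and Gm26984 (chr3:79690212-79690332).
Gm7128: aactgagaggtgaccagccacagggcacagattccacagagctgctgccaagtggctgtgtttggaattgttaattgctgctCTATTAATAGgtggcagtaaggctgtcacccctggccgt
Gm26984: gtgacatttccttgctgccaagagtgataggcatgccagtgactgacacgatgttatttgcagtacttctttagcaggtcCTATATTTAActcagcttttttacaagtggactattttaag

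Repeats made up most of the lost regions and almost none of the gained ones. Of 2134 lost regions placed on the main chromosomes, 1778 (83.3%) were of low complexity, against 61 of 10814 gained regions (0.564%), 8.21% of regions held by all 4 lists and 14.7% of all regions. A run of at least 10 CA or TG units was found in 34.6% of lost and 2.21% of gained regions. The median lost region had 79.1% of its window masked as repeat in the RefSeq genome, and the median gained region 5.74%. Regions seen only in P1 replicate 2 numbered 7516, and 63.3% of them were of low complexity, as were 31.9% of the 4798 seen only in P1 replicate 1. The share was 1.37% and 4.64% in regions seen only in P7 replicate 1 and only in P7 replicate 2. With regions of low complexity left out, 10762 gained and 375 lost regions remained. With P1 replicate 2 left out as well, and P1 replicate 1 alone standing for P1, the counts were 11094 gained and 3653 lost. A lost region then needs a peak in 1 P1 list only. With repeats kept in, 7098 regions were lost without P1 replicate 2 and 9704 without P1 replicate 1. The number of lost regions thus depended on the repeats and on how many P1 lists had to hold a peak.

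**Figure D1:**
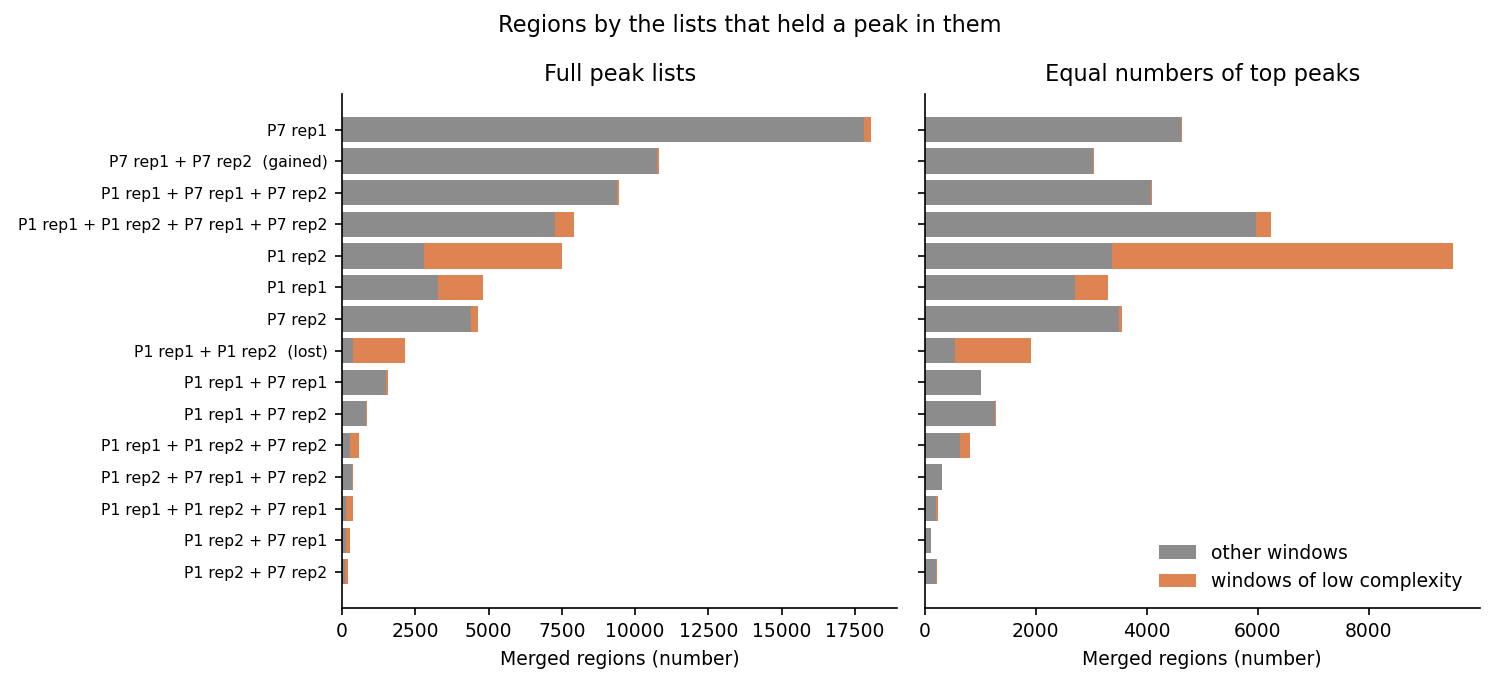
Merged regions (number, linear axis) by the set of peak lists that held a peak in them, with full lists on the left and equal numbers of top peaks on the right. Orange marks regions whose window was of low complexity. With full lists the 10823 gained regions hold 61 such windows, and the 2153 lost regions hold 1778.

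Cutting every list to its 19753 most significant peaks removed the difference in list length. Of 40330 merged regions, 3042 (7.54%) were then gained and 1922 (4.77%) lost, with 6243 held by all 4 lists. Low complexity marked 0.329% of these gained and 71.9% of these lost regions, and 3032 gained and 550 lost regions were left without them. Gained regions outnumbered lost regions with full lists and with equal lists, with repeats and without. With equal lists this order turned without P1 replicate 2 (5764 gained and 8878 lost) and without P1 replicate 1 (7140 and 11473), where a lost region needs a peak in 1 list only. These counts were not tested, and an exact permutation test of 2 libraries against 2 cannot give a p below 0.33.

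Another pattern held nearly as many regions as the gained class. Peaks in P1 replicate 1 and both P7 lists, without a peak in P1 replicate 2, were found at 9440 regions, against 366 with P1 replicate 2 in place of P1 replicate 1. Regions in both P7 lists were thus shared far more often with P1 replicate 1.

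Gained regions were peaks of middle rank. Their median percentile by q-value was 49.6 in P7 replicate 1 and 37.5 in P7 replicate 2, and their median fold enrichment (reads at the summit over the local background) was 4.57 and 4.09. Lost regions lay at percentile 33.1 in P1 replicate 1 and 57.9 in P1 replicate 2, with fold enrichments of 5.13 and 4.75. Regions of all 4 lists had median percentiles of 83.3 and 68.1 at P1 and of 87.3 and 86.1 at P7. Peaks near the calling threshold therefore weigh more in the gained class than in the shared class.

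Gained regions lay at promoters more often than lost ones. Within 2.5 kb of a transcript start were 4794 gained regions (44.3%) and 291 lost regions (13.5%), against 67.7% of regions of all 4 lists and 36.2% of all regions. The median distance to a start was 4079 bp for gained, 11301 bp for lost and 183 bp for shared regions. Introns held 27.8% of gained and 43.2% of lost regions, and 25.4% and 41.2% were intergenic. Leaving out low complexity raised the promoter share of lost regions to 18.1%. Without P1 replicate 2 as well, the shares were 44.6% for gained and 21.8% for lost regions. The share of gained minus that of lost regions ranged from 17.8 percentage points without P7 replicate 2 to 34.6 with another library left out, beside 30.8 with all 4 lists. With equal lists it was 35.2 with all 4 and ranged from 7.43 to 40.1 on leaving out 1 library. It was lowest without P7 replicate 2, where 35.2% of gained and 27.8% of lost regions lay at promoters. Comparing 1 P7 with 1 P1 library gave 12.9 to 33.4 percentage points.

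**Figure D2:**
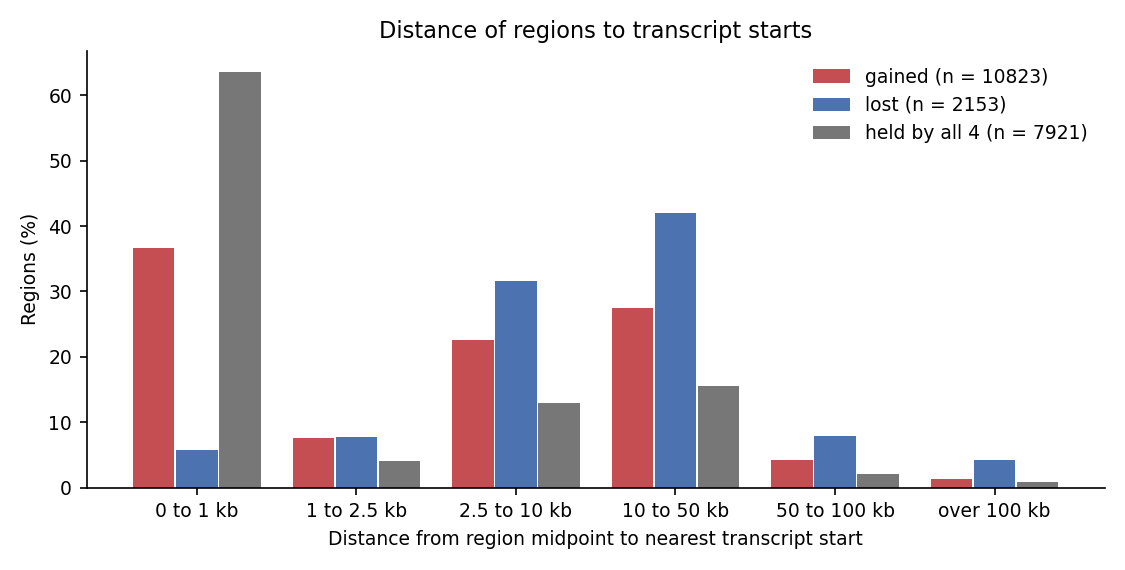
Share of regions (%) by distance from the region midpoint to the nearest transcript start, for gained, lost and shared regions with full lists. Gained regions lie between the shared regions, of which 63.6% fall within 1 kb, and the lost regions, of which 5.71% do.

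The first 10 gained promoters, ranked by their mean percentile in both P7 lists, were at Lrrc8b, Prkar2b, Rab11fip2, Nanp, Ppp1r8, Lsm8, Coq3, AI987944, Limk1 and Ephb6. At Lrrc8b, a subunit of volume-regulated anion channels, the region (chr5:105415269-105415823) had fold enrichments of 8.32 and 7.85 at P7 and no P1 peak. Its RNA was 3.76 and 3.23 FPKM (fragments per kilobase of transcript, scaled to library size) at P1 and 3.42 and 3.29 at P7, a log2 difference of -0.04. At Prkar2b, a regulatory subunit of protein kinase A, fold enrichments were 7.80 and 7.42 (chr12:32060649-32061619). Its RNA was 50.7 and 10.9 FPKM at P1 and 31.4 and 25.5 at P7, so the P1 libraries spread wider than the time points. At Lsm8, part of the spliceosome, fold enrichments were 5.88 and 6.84 (chr6:18848262-18848879). None of these 10 genes passed the RNA test between P7 and P1. At 8 of them a peak was also found in at least 1 E18.5 list, and at Prkar2b and Limk1 in neither. All 10 had peaks in both P3 lists.

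The most significant gained distal regions lay in introns or between genes, and 8 of the first 10 held an AP1 motif within 200 bp of the midpoint. In an intron nearest to Galntl6, a glycosyltransferase gene, the region (chr8:57799736-57800584) had fold enrichments of 10.9 and 7.12 at P7. The region 18.7 kb from the start of Adra1b, the alpha-1B adrenergic receptor (chr11:43919611-43920234), reached 9.53 and 6.38. Adra1b RNA nevertheless fell from 3.43 and 7.02 FPKM at P1 to 1.04 and 0.403 at P7, a log2 difference of -1.82 (SE 0.306, adjusted p = 0.00538). The region nearest to Gm13498 printed above reached 10.7 and 6.97, and that nearest to P3h2, a collagen prolyl hydroxylase (chr16:26211279-26211927), reached 8.60 and 7.21. All 10 had peaks in both P3 lists, and those nearest to Gm14125, Galntl6 and D930016D06Rik also in at least 1 E18.5 list.

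Most of the most significant lost regions lay in repeats or in sequence with copies elsewhere. The first lost promoter, at Gm10925 (chr1:24613165-24616146), spans 2982 bp of a nuclear copy of mitochondrial DNA, where reads from mitochondria cannot be told apart, and had low fold enrichments of 2.53 and 2.61. The second, at Gm10719 (chr9:3020178-3020314), had its whole window masked as repeat. At Ntan1, Gbp2-ps, Gm49241, Best1 and Ccdc186 the window held between 7.32% and 21.5% distinct words. Of the first 10 lost distal regions, 9 were of low complexity, and the other lay nearest to Gm49170 with 73.5% distinct words. The region in an intron of Cdk17, a cyclin-dependent kinase gene (chr10:93233141-93233543), had fold enrichments of 14.8 and 9.04 at P1 and 27% distinct words. None of these 10 distal regions had a peak in both P3 lists.

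AP1 motifs were common in gained distal regions. TGANTCA lay within 200 bp of the midpoint in 2632 of 6020 gained distal regions (43.7%), in 30.9% of shared distal regions, in 28.9% of all distal regions and in 47 of 1843 lost ones (2.55%). The control palindrome GTANTAC, with the same base composition, was found in 2.94%, 1.95%, 2.66% and 2.01%. Both motifs read the same on either strand, and every motif was searched on both strands. Leaving out low complexity changed the AP1 share to 43.9% in gained, 38.7% in shared, 35.4% in all and 6.25% in the 288 lost regions that were left. With P1 replicate 2 left out too, 43.6% of gained and 12.1% of lost distal regions held it. With equal lists it was found in 53.3% of gained, 38.1% of shared and 4.88% of lost distal regions. The AP1 share of gained regions thus lay above that of lost regions in each of these sets, and above that of shared regions with full lists, without low complexity and with equal lists. It fell with GC content, from 60.8% of gained regions under 40% GC to 24.6% of those of 55% or more.

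AP1 motifs of gained regions clustered at the peak summit. Within 50 bp of the P7 replicate 1 summit, 22.2% of gained distal regions and 21.2% of shared ones of other than low complexity held the motif. Around the P1 replicate 1 summit the share was 0.434% of lost distal regions. Motifs were placed by their middle base in bins of 25 bp. Per 100 gained regions, 6.5 AP1 motifs lay 25 to 50 bp after the summit and 0.914 at 225 to 250 bp after it. The control palindrome stayed between 0.0997 and 0.332 per 100 gained regions in every bin. The gained and the shared profiles ran close together over the whole span.

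**Figure D3:**
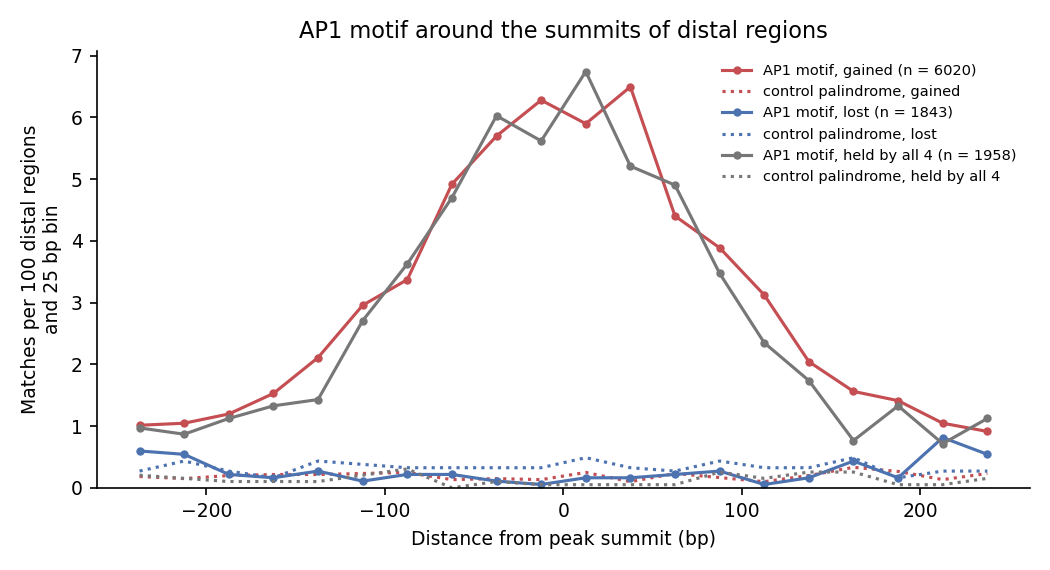
Matches of the AP1 motif (solid) and of the control palindrome (dotted) per 100 distal regions and 25 bp bin, by distance (bp) from the summit in P7 replicate 1 for gained and shared regions and in P1 replicate 1 for lost regions. Gained regions reach 6.5 and lost regions stay at or under 0.814. Shared regions are those of other than low complexity.

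The other motifs set gained and lost regions less far apart once repeats were left out. TEAD's GGAATG was found in 33.6% of gained, 37.7% of shared and 22.9% of lost distal regions, and in 33.7% of all distal regions. GATA's AGATAA was found in 19.2%, 17.6% and 14.9%, beside 20.8% of all distal regions. TTGCNNAA, bound by CEBP factors, was found in 18.8%, 14.6% and 16.7%, beside 17.4% of all distal regions. GGGCGG, bound by KLF and SP factors, was found in 13.0%, 19.0% and 7.29%, beside 11.2%, so it marked shared regions most. The MEF2 motif was found in 3.94% of gained, 5.92% of shared and 8.33% of lost distal regions, and its shuffled control in 2.69%, 2.15% and 5.56%. With repeats kept in, MEF2 was found in 3.92% of gained and 1.79% of lost regions, so the direction of its difference turned with the repeats. It also turned without P1 replicate 2, where gained minus lost was -0.50 percentage points. A match describes letters in a window and is not evidence of binding.

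With full lists nearly all gained regions were already peaks at P3, and few were peaks in both E18.5 lists. Of gained distal regions, 92.0% had a peak in both P3 lists and 1.77% in both E18.5 lists, against 52.5% and 3.87% of all distal regions. Of gained promoter regions, 91.7% were in both P3 lists and 14.0% in both E18.5 lists, against 75.1% and 30.3% of all promoter regions. Shared distal regions were in both P3 lists in 84.1% and in both E18.5 lists in 37.2%. With low complexity left out, 94.1% of shared and 92.2% of gained distal regions were in both P3 lists. With equal lists 80.5% of shared and 69.0% of gained ones were. Gained distal regions thus exceeded shared ones at P3 only with full lists and repeats kept in. The P3 lists were long, with 95257 and 52040 peaks, and the E18.5 lists short, with 13149 and 14910. With equal lists the share of gained regions in both P3 lists was 69.0% at distal sites and 49.7% at promoters, and in both E18.5 lists 6.70% and 38.9%. Of all regions, 26.7% at distal sites and 47.6% at promoters were then in both P3 lists, and 6.66% and 45.6% in both E18.5 lists. At promoters the share in P3 thus depended on the length of the lists, and with equal lists it lay near that of all promoter regions. The 38.9% of gained promoters in both E18.5 lists lay under the share of all promoter regions. P7 replicate 1 and E18.5 replicate 1 carried the same peak name prefix, and that of P3 replicate 1 began alike. The prefixes of both P1 lists and of E18.5 replicate 2 also began alike. The part of this in the shares was not tested.

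Lost regions were mostly peaks at P1 alone. In neither E18.5 list were 91.2% of them and in neither P3 list 85.7%, and with low complexity left out these shares were 85.3% and 71.7%. All regions were in neither E18.5 list in 77.0% and in neither P3 list in 23.6%. Lost distal regions lay near the background at E18.5, with 91.1% in neither list against 89.2% of all distal regions, while lost promoter regions were in neither in 91.8% against 55.3% of all promoter regions. P3 replicate 1 had a peak at 13.9% of lost regions and P3 replicate 2 at 2.37%. E18.5 replicate 1 had one at 1.21% and E18.5 replicate 2, whose prefix begins like those of the P1 lists, at 8.22%.

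**Figure D4:**
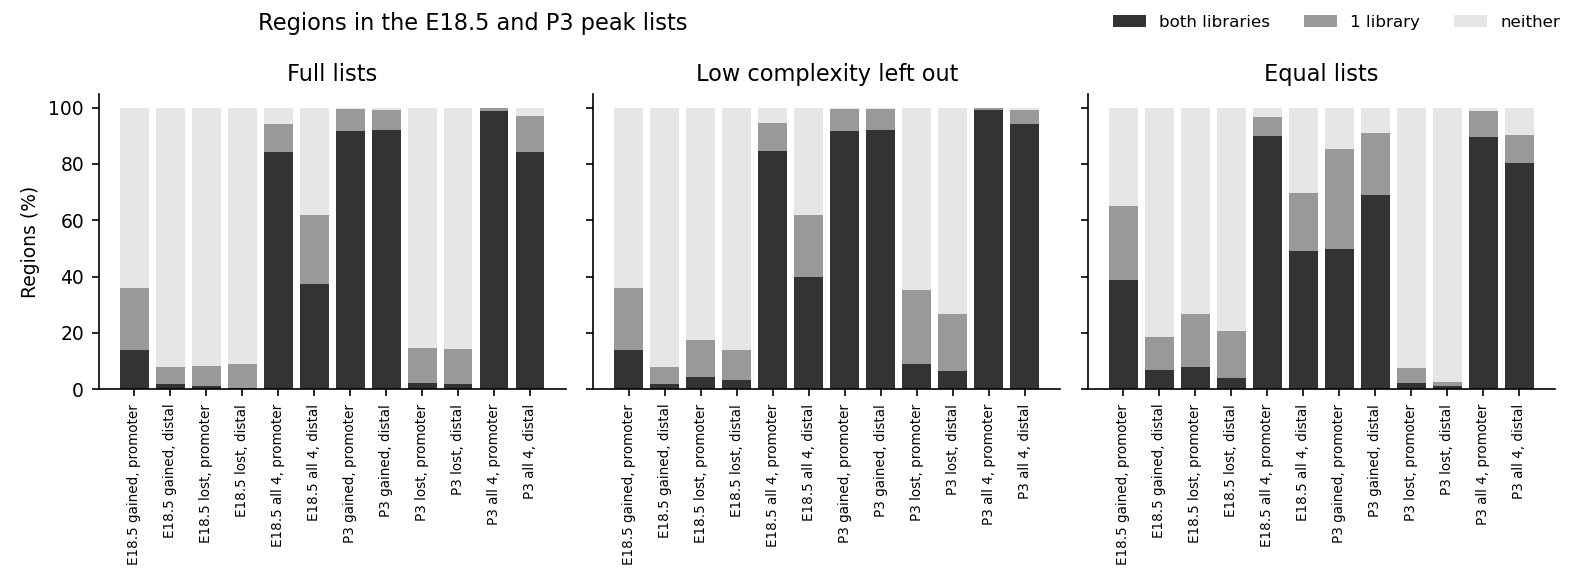
Share of regions (%) with a peak in both, 1 or neither library of E18.5 and of P3, for gained, lost and shared regions at promoters and at distal sites, with full lists, with low complexity left out and with equal lists. Gained distal regions are in both P3 lists in 92.0% and in both E18.5 lists in 1.77% with full lists, and lost regions are mostly in neither.

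Few shared regions differed in signal. In the 7921 regions of all 4 lists the fold enrichment was compared by limma after centring each library on its median, and 1 region was higher at P7 (0.0126%) and 85 were lower (1.07%) at adjusted p under 0.01 and a log2 difference above 1 in size. At an unadjusted p under 0.05 and the same limit on the log2 difference, 1 was higher and 91 were lower. Without that limit, 1092 regions had an unadjusted p under 0.05. Of the 85 lower regions 67 were of low complexity and 78 were distal, and without low complexity 1 was higher and 18 were lower. Median fold enrichments over these regions were 7.60 and 5.06 at P1 and 6.68 and 6.41 at P7, so that P1 replicate 2 was lowest. Quantile normalization gave 5 higher and 28 lower, and no centring gave 0 and 5. Lower calls numbered 188 without P1 replicate 1, 25 without P1 replicate 2 and 9 without P7 replicate 1.

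The higher region was the promoter of Gmps, the last enzyme of guanosine monophosphate synthesis (chr3:63975987-63976729). Its fold enrichments were 4.66 and 3.98 at P1 and 9.64 and 8.96 at P7, so the time points did not overlap. The log2 difference was 1.03 (SE 0.245, limma adjusted p = 0.00217), and the call was lost without centring and without P1 replicate 1, P7 replicate 1 or P7 replicate 2. The largest fall was at a repeat on chromosome Y nearest to Gm21742 with 18.7% distinct words (chrY:90819576-90819921). Its fold enrichments were 24.0 and 22.4 at P1 and 5.33 and 5.77 at P7, a log2 difference of -2.14 (SE 0.219, limma adjusted p = 1.37e-18). The next were nearest to 4930558G05Rik (-1.77), Gm38590 (-1.77) and Gm30489 (-1.60), with 68.9%, 22.7% and 6.31% distinct words. The first of these calls was lost without P7 replicate 1 and the other 2 without centring. Outside low complexity, median log2 differences were 0.03 for shared distal regions with an AP1 motif, -0.11 for those without and -0.02 for promoters, beside -0.51 for regions of low complexity. These medians lie close together except for the repeats.

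RNA of cardiomyocyte markers was lower at P7, and that of fibroblast markers mostly higher. Of 13979 genes tested with limma, 482 (3.45%) were higher at P7 and 763 (5.46%) lower at adjusted p under 0.05 and a log2 difference above 1 in size. All 16 of 16 cardiomyocyte markers were lower at P7, with a median log2 difference of -3.21, beside -0.004 over all genes. Their summed level was 14942.5 and 23933.5 FPKM at P1 and 2621 and 1202 at P7. Troponin T (Tnnt2) fell from 3662 and 5428 FPKM to 710 and 329.75 (log2 difference -3.20, SE 0.341, adjusted p = 0.00107). Defining cardiomyocyte markers were thus present at both ages but much lower at P7. The paper reports high purity of the isolated cells by staining for cardiac troponin T, at P7 as well. Fewer cardiomyocytes and less RNA per cardiomyocyte cannot be told apart in bulk samples.

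Most markers of other cells moved the other way or stayed under the thresholds, and 2 were lower. Of all tested genes 3.45% were higher and 5.46% lower. Of 12 fibroblast markers 7 were higher and none lower, with sums of 1225 and 1437 FPKM at P1 and 3019 and 3748 at P7. Of 10 smooth muscle and pericyte markers 4 were higher and 2 lower, with sums of 1127 and 1052 FPKM at P1 against 1671 and 1879 at P7. Of 12 endothelial markers 1 was higher, with sums of 463 and 423 FPKM at P1 against 595 and 502 at P7. Macrophage sums were 119 and 159 FPKM at P1 and 134 and 113 at P7, and erythroid sums 8.32 and 41.2 at P1 and 11.3 and 12.1 at P7, with none called. Of 8 epicardial markers 1 was higher, with sums of 220 and 302 FPKM at P1 and 351 and 358 at P7. Whether the ATAC-seq and RNA-seq libraries came from the same preparations is not given in the sources used here. The part of cell makeup in the gained and lost regions was not tested.

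**Figure D5:**
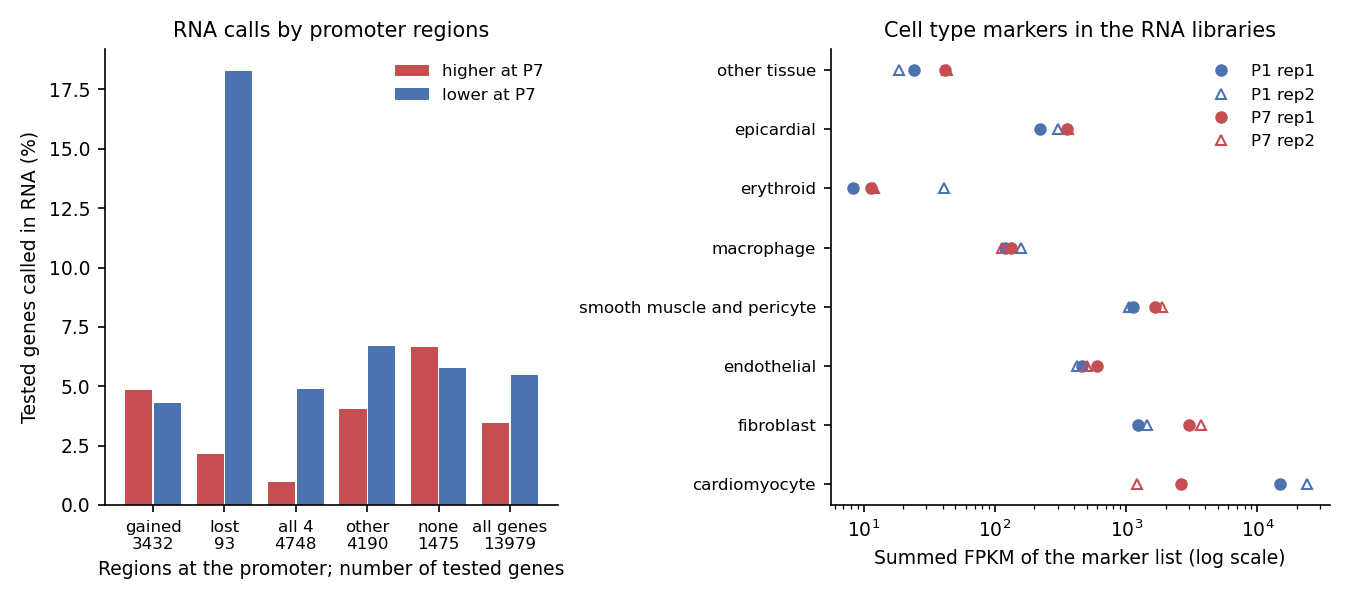
Left, share of tested genes (%) called higher or lower at P7 in RNA by the regions at their promoters, with the number of genes under each class. Right, summed FPKM (log scale) of each cell type marker list in the 4 RNA-seq libraries, where cardiomyocyte markers fall from 14942.5 and 23933.5 at P1 to 2621 and 1202 at P7.

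Gained promoters marked genes of both RNA directions almost equally. A gained and no lost region lay at the promoters of 3432 tested genes (24.6%). Of these, 166 (4.84%) were higher and 148 (4.31%) lower at P7, with a median log2 difference of 0.01, against 3.45% and 5.46% of all tested genes. Genes with a region of all 4 lists and no gained or lost region were higher in 0.948% and lower in 4.87% of 4748. Genes without any region at the promoter were higher in 6.64% and lower in 5.76% of 1475. Another region of all 4 lists lay at the promoter of 643 of the 3432 genes. Of these 2.02% were higher, against 5.49% of the other 2789. With equal lists 47 of 1397 gained promoter genes (3.36%) were higher, near the 3.45% of all tested genes. Another 45 (3.22%) were lower, which is under the 5.46% of all tested genes.

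Ccn5, Medag, Angptl4, Aldh1a2 and Frzb had the largest rises in RNA among the 166 gained promoter genes called higher. Ccn5, a secreted protein of the CCN family, had 2.69 and 1.32 FPKM at P1 and 97.7 and 135 at P7 (log2 difference 5.31, SE 0.245, adjusted p = 0.000139). Its gained region (chr2:163820651-163820885) had fold enrichments of 4.88 and 4.68, and 2 further gained distal regions lay nearest to it. Aldh1a2, which makes retinoic acid and marks epicardium, had 17.4 and 28.1 FPKM at P1 and 148 and 200.15 at P7 (2.91), with fold enrichments of 5.06 and 5.68 at P7 (chr9:71215226-71216233). Medag (log2 difference 3.08), Angptl4, a secreted inhibitor of lipoprotein lipase (3.00), and Frzb, a secreted Wnt antagonist (2.88), followed. In all 5 genes both P7 libraries lay above both P1 libraries.

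Tnni1, Clip4, Eno3, Nrap and Rnf207 had the largest falls in RNA among the 148 gained promoter genes called lower. Tnni1, the troponin I isoform of the fetal heart, fell from 251 and 380 FPKM to 28.5 and 12.7 (log2 difference -3.94, SE 0.354, adjusted p = 0.000843). Its gained region (chr1:135781278-135781464) had fold enrichments of 3.79 and 4.07, and another region of all 4 lists lay at its promoter. Eno3, the muscle enolase, fell from 242 and 344 FPKM to 41.1 and 20.7 (-3.26), and its gained peak was weak at 2.96 and 2.29 (chr11:70655695-70656048). Clip4 (-3.40), Nrap, which helps to assemble myofibrils (-3.20), and Rnf207, a cardiac RING finger protein (-3.19), were the others. At these genes a peak was gained while RNA fell.

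Lost promoters marked few genes, and 18.3% of these were lower in RNA. A lost and no gained region lay at the promoters of 93 tested genes (0.665%), of which 17 were lower and 2 higher, against 5.46% and 3.45% of all tested genes. Without low complexity 33 genes were left, of which 10 were lower (30.3%) and 1 was higher. With equal lists 34 of 174 (19.5%) were lower, and 30 of 109 (27.5%) without low complexity. Without P1 replicate 2 the class held 448 genes with 84 lower (18.8%), and without P1 replicate 1 it held 220 genes with 25 lower (11.4%). The share of lower genes thus exceeded that of all genes in each of these sets, in RNA where all cardiomyocyte markers were lower too.

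Trim72, Sh3bgr, Ryr2, Fsd2 and Kcnh2 had the largest falls in RNA among the 17 lost promoter genes called lower. Trim72, a muscle protein of membrane repair, fell from 66 and 104 FPKM to 13.6 and 5.17 (log2 difference -3.14, SE 0.430, adjusted p = 0.00231). Its lost region (chr7:128003770-128003977) had fold enrichments of 6.69 and 3.61 at P1, no peak at E18.5 or P3 and 90.4% distinct words. Ryr2, the calcium release channel of the cardiac sarcoplasmic reticulum, fell from 13.1 and 22.3 FPKM to 1.91 and 0.822 (-2.97), and its lost region (chr13:12109065-12109219) had 5.21 and 7.5 at P1. That window was of low complexity, with 67.9% distinct words. Kcnh2, a potassium channel of repolarization, fell from 29.5 and 48.9 FPKM to 7.83 and 4.66 (-2.46), and its lost region (chr5:24352548-24352762) had 4.65 and 4.24. Fsd2 (-2.89) had a lost region with 7.45 and 4.61 at P1 and 93.4% distinct words. Sh3bgr (-3.10) had a lost region with 5.17 and 3.71 at P1, but in a repeat with 15.9% distinct words. Sp110 (1.22) and Pde9a (1.15) were the 2 lost promoter genes called higher. Both calls were lost without P7 replicate 2, and that of Sp110 also without P1 replicate 1 or P7 replicate 1.

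Genes of cardiomyocyte function mostly fell in RNA, where 5.46% of all tested genes fell and 3.45% rose. Of 16 cardiomyocyte markers 1, Ryr2, had a lost promoter region and none a gained one, against 0.665% and 24.6% of all tested genes. Of the others 4 had a region of all 4 lists and 10 had other patterns. With equal lists 3 of the 16, Tnnt2, Actc1 and Ryr2, had a lost promoter and none a gained one, against 1.24% and 9.99% of all tested genes. Of 17 ion channel and calcium handling genes 12 fell in RNA and none rose. Lost promoter regions lay at Ryr2 and Kcnh2, and gained ones included those at Cacna1c, the L-type calcium channel (RNA -1.85), Slc8a1, the sodium-calcium exchanger (-3.09), and Gja1, connexin 43 (-1.83). The Cacna1c region (chr6:119109094-119109428) had fold enrichments of 4.91 and 4.86 at P7 and was gained with equal lists as well, while those of Slc8a1 and Gja1 were not, and Ryr2 and Kcnh2 remained lost. With full lists another region of all 4 lists lay at the Cacna1c promoter. Of 16 genes of fetal and mature isoforms 14 fell, with gained promoters at Tnni1 and Cox6a1, neither of them gained with equal lists. Both also had a promoter region of all 4 lists with full lists. Of 16 cardiac transcription factors 7 fell and none rose, and gained promoter regions lay at Hand2, Mef2c, Mef2d and Esrrg. With equal lists Mef2c and Prox1 were gained and Myocd was lost. Mef2c had 3 gained promoter regions, of which 1 with 5.87 and 4.74 (chr13:83523660-83524910) was gained with equal lists too, while its RNA fell (-1.25).

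With full lists, promoters of metabolic genes were gained about as often as those of all tested genes. Of 19 glycolysis genes 5 had gained promoters, at Hk2, Gpi1, Pfkm, Eno3 and Pkm, and in RNA 6 fell and 1 rose. Of all tested genes, 5.46% fell and 3.45% rose. Hk2 and Pkm also had a promoter region of all 4 lists. The 5 of 19 is near the 24.6% of all tested genes. With equal lists none was gained, and Pfkp and Pgam2 were lost, beside 9.99% and 1.24% of all tested genes. Pfkm, the muscle phosphofructokinase, had gained regions at 2 starts, with 4.83 and 6.54 at chr15:98093056-98093695 and 4.74 and 3.73 at chr15:98108330-98108836. The first had peaks in both E18.5 lists. Pfkm RNA fell from 42.1 and 66 FPKM to 15.5 and 12.9 (log2 difference -1.83, SE 0.239, adjusted p = 0.00195). Of 18 fatty acid oxidation genes 4 had gained promoters, at Cpt1a, Hadha, Hadhb and Fabp3, and in RNA 8 fell and none rose. Cpt1a also had a promoter region of all 4 lists. The 4 of 18 is also near the 24.6% of all tested genes, and with equal lists none was gained and Cpt1b was lost. Hadha and Hadhb share 1 gained region between their starts (chr5:30154593-30155675), with 4.82 and 5.36 at P7 and peaks in all E18.5 and P3 lists.

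Many fibroblast and matrix genes rose in RNA, and some of them had gained promoters. Of 12 fibroblast markers 5 had a gained promoter, at Tcf21, Col3a1, Dcn, Ddr2 and Mfap5, against 24.6% of all tested genes. None had a lost one, beside 0.665% of all tested genes. Col3a1, a fibrillar collagen, rose in RNA (log2 difference 2.60) and had 2 gained regions, with 3.89 and 3.85 at chr1:45309151-45309489 and 4.31 and 3.36 at chr1:45311221-45311735. Mfap5 rose (1.87), as did Ddr2 (1.44), whose call was lost on leaving out any of the 4 libraries. Tcf21, a fibroblast transcription factor (0.38), and Dcn, decorin (0.63), did not pass. With equal lists none of these 5 promoters was gained and Postn alone of the 12 was. Tcf21, Ddr2 and Mfap5 then kept a peak in some of the 4 lists, and Col3a1 and Dcn in none. Of 22 extracellular matrix genes 6 had gained promoters, near the 24.6% of all tested genes. In RNA 12 rose and none fell, beside 3.45% and 5.46% of all tested genes. The gained ones that rose were Col3a1, Col5a1 (1.5), Lox (1.76) and Timp1 (1.44), and Timp1 also had a promoter region of all 4 lists. With equal lists 3 of the 22 were gained, at Postn, Fbn1 and Loxl1, and none of the former 6, beside 9.99% of all tested genes. Gained promoters also lay at Kdr, Flt1 and Eng of the 12 endothelial markers and at Pdgfrb, Kcnj8 and Tagln of the 10 smooth muscle and pericyte markers. Pdgfrb alone of these 6 rose in RNA (2.14), and 24.6% of all tested genes had a gained promoter. With equal lists Flt1, Pdgfrb and Tagln were still gained and Kdr, Eng and Kcnj8 were not, beside 9.99% of all tested genes. Of 8 epicardial markers Tbx18, Aldh1a2 and Lrrn4 had gained promoters, as did Cd68 of 10 macrophage markers, beside the same 24.6%. None of these 4 was gained with equal lists, and Wt1 of the epicardial markers was then lost. Among 10 markers of other tissues, gained promoters lay at Tubb3, which did not pass in RNA (0.98), and at Syt1 and Gfap, which were too low to test.

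Promoters of the AP1 family were gained about as often as those of all genes. Of 12 members 3, Fosl1, Atf3 and Mafk, had a gained promoter region, beside 24.6% of all tested genes, and with equal lists Atf3 alone had one. Another 6 members had a region of all 4 lists and no gained or lost one. Atf3 and Mafk had such a region beside the gained one. In RNA 1 member rose, beside 3.45% of all tested genes. That gene was Junb, with 56.2 and 67.2 FPKM at P1 and 164 and 198 at P7 (log2 difference 1.54, SE 0.177, adjusted p = 0.00126), and its promoter had a peak in all 4 lists. Jun was at 27.4 and 28.7 FPKM at P1 and 36.0 and 39.8 at P7 (0.42, adjusted p = 0.313), and Fosl2 at 22.9 and 17.6 against 27.5 and 28.7 (0.46, adjusted p = 0.112). Neither passed. The Fosl1 region (chr19:5448450-5448990) had 4.07 and 2.88 at P7 and an AP1 motif, and the Atf3 region gained with equal lists too (chr1:191216168-191216727) had 5.43 and 4.24 and an AP1 motif.

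Among genes with fast or inflammatory responses, gained regions and RNA met at single genes. Of all tested genes, 3.45% rose and 5.46% fell in RNA. Of 11 immediate early genes 3 had gained promoters, of which Egr2 (1.11) and Ier3 (1.09) rose and Zfp36 did not pass, and both calls were lost without P7 replicate 2. With equal lists Egr2 and Zfp36 were still gained. Ier3 and Zfp36 also had a promoter region of all 4 lists with full lists. Egr1 had a lost promoter region, with 3.37 and 4.41 at P1, that was a peak in both P3 lists and was not lost with equal lists. Of 15 inflammation genes 10 rose and none fell, and 4 had gained promoters, at Cxcl12, Nfkbia, Nfkb1 and Ptgs2, near the 24.6% of all tested genes. With equal lists Ptgs2 and Cxcl1 were gained, Nfkbia had a region of all 4 lists, and Cxcl12 turned from gained to lost. With full lists Cxcl12 and Nfkbia also had a promoter region of all 4 lists beside the gained one. Nfkbia, the inhibitor of NF-kappa-B, rose (1.45). Ptgs2, cyclooxygenase 2, had a gained region at chr1:150099665-150100317 with 5.94 and 4.57 and did not pass in RNA (1.16, adjusted p = 0.0742).

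None of 18 cell cycle genes passed in RNA, and 5 had gained promoters, at Aurkb, Plk1, Foxm1, E2f1 and Ccnd1, near the 24.6% of all tested genes. With equal lists Aurkb and Plk1 were gained, and E2f1 had a region of all 4 lists. E2f1 had such a region with full lists too. None of the 18 was called in RNA by limma, and their median log2 difference was 0.15. The Plk1 region (chr7:122158964-122159653) had 6.14 and 5.42 at P7 and was a peak in both E18.5 and both P3 lists. Of 12 TGF beta pathway genes 4 had gained promoters, at Tgfb1, Smad3, Smad7 and Ltbp1, and 1 rose. With equal lists Tgfb1 and Ltbp1 were gained, and Smad3 and Smad7 had a region of all 4 lists. Smad3 and Smad7 had such a region with full lists too. Ltbp1, which binds latent TGF beta, had 2 gained promoter regions, the stronger with 6.21 and 4.84 (chr17:75178314-75178844), and 4 gained distal regions nearest to it. Of 11 YAP and TEAD genes 4 had gained promoters, at Yap1, Tead1, Tead2 and Tead3, and 1 fell. With equal lists Yap1 and Lats2 were gained. Tead1 had a region of all 4 lists both with full and with equal lists. Of 10 EGF family genes 3 had gained promoters, at Areg, Tgfa and Erbb4, with 1 higher and 1 lower in RNA, and none was gained with equal lists. The counts of all these lists stand beside 24.6% of all tested genes with gained promoters, and 9.99% with equal lists. In RNA 3.45% of all tested genes rose and 5.46% fell.

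Of the 18 genes that the study discusses by name, 6 had a gained and 1 a lost promoter region, beside 24.6% and 0.665% of all tested genes. Dcn, Pfkm, Nexn, Irs2, Gstm1 and Atf3 were gained and Trim72 lost. Tnnt2, Stmn1, Cfap20, Hmgb2, Adamts1, Junb and Mef2a had a region of all 4 lists and no gained or lost one. Irs2, Gstm1 and Atf3 also had a promoter region of all 4 lists beside the gained one. At Nexn another promoter region held a P1 replicate 1 peak (4.75). With equal lists 1, Atf3, was gained and 2, Tnnt2 and Trim72, were lost. Irs2 and Gstm1 then kept a region of all 4 lists but no gained one, and Dcn had no region. These genes were chosen on these samples, so their counts are not independent evidence. Tnnt2 had fold enrichments of 6.08 and 3.74 at P1 and 3.8 and 3.53 at P7. The paper describes the promoters of Dcn and Pecam1 as closed in these cells. Here Dcn had P7 peaks with fold enrichments of 4.32 and 3.37, and Pecam1 had a peak in P7 replicate 1 alone (5.09). Ereg, an EGF receptor ligand, had peaks in P1 replicate 1 (6.66) and both P7 lists (6.44 and 5.38). Its RNA was 13.9 and 4.13 FPKM at P1 and 20.7 and 28.1 at P7 (log2 difference 1.52, adjusted p = 0.0423), a call lost without P1 replicate 2 or either P7 library.

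Genes nearest to gained distal regions were called somewhat more often in both directions. Among 11972 tested genes with no such region 3.11% were higher and 5.26% lower. Among 1548 with 1 region the shares were 5.17% and 6.40%, among 419 with 2 to 3 regions 6.44% and 7.16%, and among 40 with 4 or more 7.5% and 10%. The last group holds 3 higher and 4 lower genes. Most gained distal regions, 6, lay nearest to Foxp1, a forkhead transcription factor, between 14.5 and 31.9 kb from its starts, and 4 of them held an AP1 motif. All 6 were peaks in both P3 lists and none in both E18.5 lists. Foxp1 RNA was 12.0 and 14.4 FPKM at P1 and 16.8 and 14.5 at P7 (0.23), so the time points overlapped. Adra1b, Elmo1, Kalrn, Abtb2, 2610035D17Rik, Gm16237 and Gm47125 had 5 each, and of these Adra1b alone was called in RNA.

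Genes nearest to lost distal regions were mostly not called in RNA. Among 574 tested genes nearest to 1 such region 4.18% were higher and 8.54% lower, against 3.41% and 5.32% of 13370 nearest to none. The genes nearest to most lost regions had them mainly in repeats. Epg5 and Esr2 had 4 each, all of low complexity, Gm47283 and Rny3 had 4 each with 2 of low complexity, and AC152060.1, Dym, Itpr2 and Mir6239 had 3 each. None of these regions was a peak in both P3 lists, and none of the tested genes among them was called in RNA.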

How the data were processed

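The 8 mouse ATAC-seq peak lists and 8 mouse RNA-seq transcript tables were used, and the rat and HiChIP libraries were not used here. For ATAC-seq, the authors trimmed reads with cutadapt, aligned them with Bowtie2 to mm10, removed duplicates with Picard, called peaks in each library with MACS2 and removed peaks in the ENCODE blacklist. The deposited lists give for each peak a score, the fold enrichment over local background (a ratio), the −log10 p-value, the −log10 q-value and the summit position. Peaks came with no read counts, so their depth is unknown. Tn5 offset correction is not given in the sources used here. For RNA-seq, the authors aligned reads with HISAT2 2.1.0 and assembled transcripts with StringTie 1.3.5 on GENCODE annotation. The deposited transcript tables give FPKM, TPM and coverage, a signal in reads per base, from which the aligned reads per P1 or P7 library were estimated at 33.3 to 37.5 M, taking reads of 150 bases. Tool names and the HISAT2 and StringTie versions are from the submitters' processing notes.

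Peaks of the 4 lists that overlapped by at least 1 bp were merged. Equal lists took the 19753 most significant peaks by q-value. A region was at a promoter where its midpoint lay within 2.5 kb of any of 141767 transcript starts, and distal otherwise. Motifs were looked for in either orientation in the RefSeq GRCm38 genome, up to 200 bp from the midpoint, with each motif counted apart from the others. Low complexity meant under 70% distinct 6-base words in that window.

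FPKM was summed per gene and tested as log2(FPKM + 1) with limma 3.58.1 in R 4.3.3, over genes that reached 1 FPKM in 2 or more of the 8 libraries (two-sided, trend, Benjamini-Hochberg), where differences of low genes are understated. The highest fold enrichment per region was tested by limma as log2, centred on each library's median. Both scripts were tested on simulated data. The 2 replicates per time point are stated to be biological. The RNA fit took the spread between replicates from all 8 libraries, those of E18.5 and P3 included, and the signal fit from the P1 and P7 libraries. Both fits drew each spread towards a trend over all genes or regions. A p-value therefore does not rest on the replicates of 1 gene or region alone. The self-written steps used Python 3.11.15 with pandas 2.3.3 and pysam 0.24.0.

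The members and gene lists were chosen with earlier results of these data known. Named were the 18 genes the study names, the 10 promoter and 10 distal regions gained or lost both with full and with equal lists that ranked highest, the 5 genes with the largest RNA difference in each combination of promoter and RNA call with libraries that do not overlap, the 8 genes nearest to most gained or lost distal regions, the 5 regions with the largest called signal difference in each direction, and list members with a gained or lost promoter. Alternatives changed list length, threshold, peak width, merging, overlap, promoter limit, motif window, scaling, filter, pseudocount, unit and libraries. Leaving out low complexity, alone or with P1 replicate 2, was chosen after seeing the data. A few list members are not reported here.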

Additional observations from a re-analysis of the deposited data

How the results depend on the processing

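Of the comparisons of lists, motifs, signal and RNA, 100 alternative values kept their direction and size, 54 moved and 3 turned. The count of gained regions was 3042 with equal lists, 4845 with the upper 0.5 of each list, 17290 where peaks had to cover at least 0.5 of a region, and 11195 to 29171 on leaving out 1 library. Lost regions numbered 883 with the upper 0.5, 809 at −log10 q of at least 5, 375 without low complexity, 3653 without low complexity and P1 replicate 2, and 2528 to 9704 on leaving out 1 library. With equal lists, leaving out 1 library gave 5764 to 7700 gained and 2177 to 11473 lost regions, and leaving out low complexity gave 550 lost. Gained promoter genes called higher, 166, became 47 with equal lists, 100 with the upper 0.5 and 164 to 258 on leaving out 1 library. Lost promoter genes called lower, 17, became 34 with equal lists, 9 at −log10 q of at least 5, 10 with peaks covering 0.5 of the region, 7 with a promoter limit of 1 kb, 10 without low complexity, 78 without low complexity and P1 replicate 2, and 16 to 84 on leaving out 1 library. The promoter share of gained minus lost, 30.8 percentage points, became 43.0 with the upper 0.5, 39.7 at −log10 q of at least 5, 45.6 with peaks covering 0.5 of the region and 17.8 to 34.6 on leaving out 1 library. The AP1 share of gained minus lost, 41.2 percentage points, became 48.4 with equal lists, 47.5 with the upper 0.5, 30.7 within 100 bp, 28.25 with promoters included, 31.6 without low complexity and P1 replicate 2, and 33.8 to 39.7 on leaving out 1 library. The MEF2 difference, 2.13, turned to -0.50 without P1 replicate 2, -4.39 without low complexity and -4.30 without both, and ranged from -0.50 to 3.27 on leaving out 1 library. Shared regions called higher, 1, became 5 with quantile normalization, 0 without centring and 0 to 2 on leaving out 1 library, and those called lower, 85, became 28, 5 and 9 to 188, and 18 without low complexity. RNA calls were 92 higher and 56 lower without a filter on FPKM, where 55450 genes were tested, and 329 to 531 and 530 to 961 on leaving out 1 library. The share of gained regions in both P3 lists was 58.9% with equal lists, beside 91.9%. Apart from the construction of each setting, the cause of these moves was not tested. Of the named genes' RNA values 62 lost a call, 44 of them without the filter, and 17 gained a call. Unknown read depth of the peaks and 2 libraries per time point limit all counts of gained and lost regions.

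P1 and P7 libraries of the same replicate number share only that number, with a correlation of their deviations of 0.123 over shared regions and -0.0194 over genes in RNA. With the replicate number as a block, 1 shared region was higher and 90 were lower, and 483 genes were higher and 764 lower in RNA.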

Other observations

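With low complexity left out, the remaining motifs were found at like rates in gained and shared distal regions. TTGGCA, bound by NFI factors, was found in 26.6% of gained, 29.4% of shared and 28.8% of lost distal regions. AACCACA, bound by RUNX factors, was found in 9.43%, 9.19% and 9.38%. AGGGGGC, part of the CTCF motif, was found in 7.64%, 8.12% and 3.82%, and CACTTAA, bound by NKX2-5, in 4.09%, 3.98% and 2.78%. CCGGAAG, bound by ETS factors, was found in 3.68%, 4.6% and 2.43%. CAAGGTCA, bound by estrogen-related receptors, was found in 2.67%, 3.22% and 4.86%. The CArG box of SRF was found in 2.14%, 2.81% and 1.39%, AGGTGTGA, bound by T-box factors, in 1.52%, 1.12% and 1.04%, and GCGCATGC, bound by NRF1, in 0.986%, 1.33% and 1.39%.

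The 4 comparisons of 1 P7 with 1 P1 library gave 29829, 40178, 16985 and 26782 regions with a P7 peak alone and 8683, 10536, 9205 and 10400 with a P1 peak alone. Both P7 libraries held more regions of their own in each of the 4. Gained regions made up between 13.7% and 16.5% of all regions on each of the autosomes and 16.5% on chromosome X.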
